A study of Mus musculus with 24 samples.

Results

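The 29 genes described here make cholesterol, govern its synthesis through the transcription factor SREBP2, or bring sterol into the cell and move and store it. They are listed by name, without a threshold on measured values, although the list was drawn up with earlier results of these data known. All 29 were found among the 18171 genes of the deposited table and passed the filter on low values. Gene expression was measured by RNA sequencing of liver from C57BL/6 mice, in 12 livers that overexpressed L2d13 (the labels' L2 delta13) and 12 wild-type (WT) livers. Each genotype came in 2 sets of 6 livers, marked by a digit 2 or 4 in the sample names, called set 2 and set 4 here. The labels do not say what the digit stands for, which promoter drives the transgene, how many founder lines were used, or how old the mice were. No treatment is named for any of the 4 groups.

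Cholesterol is built from acetyl-CoA through the mevalonate pathway. Mevalonate is turned into isoprenoid units, these are joined to squalene, and squalene is closed into lanosterol and trimmed step by step to cholesterol. SREBP2 is made as a membrane protein of the endoplasmic reticulum and is carried by its escort Scap to the Golgi, where proteases free the part that enters the nucleus and switches on the genes of this pathway. When sterols are plentiful, Insig proteins hold Scap back, and the pathway's transcripts usually fall together. The liver is a main site of both cholesterol synthesis and uptake from blood.

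In L2d13 livers 9 of the 19 synthesis enzymes were lower than in WT livers and none was higher, where 4.86% of all genes were lower and 25.9% higher. Of the other 10 genes 2 were lower and 4 were higher, both larger shares than those of all genes (4.86% and 25.9%). Over all 29 genes, 4 higher is a smaller share than 25.9%. The 4 are Npc1, Scap, Insig2 and Mylip, which export lysosomal cholesterol, escort or retain SREBP2, or limit receptor uptake. Of these 4 only Npc1 was also called after the libraries were scaled to a common median ratio. Hmgcs1 and Nsdhl fell the most, by 1.08 ± 0.20 and 1.03 ± 0.16 on the log2 scale. The mRNA of SREBP2 itself, Srebf2, differed by only -0.03 ± 0.10 (adjusted p = 0.8532). In set 4 the WT levels of Hmgcs1, Fdps, Sqle, Nsdhl and Dhcr7 were highest in 4 livers. These 4 also lay above a limit on a technical measure, which was set with the data in view. Results with and without such libraries are given.

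Promoters of 4 of the genes are shown because SREBP2 acts with NF-Y at sterol gene promoters: 3 of the genes fell, and Mylip rose. They are the 250 bases before the RefSeq start site on GRCm38.p6, 5′ to 3′ on the gene's strand, and outside the GENCODE M21 transcripts of the gene itself. They lie at chr13:119690101-119690350 on the plus strand (Hmgcs1), chrX:72918271-72918520 on the plus strand (Nsdhl), chr9:42264301-42264550 on the minus strand (Sc5d) and chr13:45389492-45389741 on the plus strand (Mylip). Capitals mark the letters CCAAT of the NF-Y box (ATTGG on the other strand), CACGTG of an E-box, and TCACNCCAC of the sterol regulatory element core.
Hmgcs1: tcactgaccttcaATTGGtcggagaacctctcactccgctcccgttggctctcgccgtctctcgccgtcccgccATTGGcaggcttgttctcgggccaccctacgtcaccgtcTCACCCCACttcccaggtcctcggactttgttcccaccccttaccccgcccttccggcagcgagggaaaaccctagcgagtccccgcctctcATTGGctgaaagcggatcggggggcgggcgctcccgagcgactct
Nsdhl: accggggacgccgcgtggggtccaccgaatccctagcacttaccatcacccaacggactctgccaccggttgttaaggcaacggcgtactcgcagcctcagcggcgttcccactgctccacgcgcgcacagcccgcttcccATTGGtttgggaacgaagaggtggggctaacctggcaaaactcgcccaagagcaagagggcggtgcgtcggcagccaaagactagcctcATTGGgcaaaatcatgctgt
Sc5d: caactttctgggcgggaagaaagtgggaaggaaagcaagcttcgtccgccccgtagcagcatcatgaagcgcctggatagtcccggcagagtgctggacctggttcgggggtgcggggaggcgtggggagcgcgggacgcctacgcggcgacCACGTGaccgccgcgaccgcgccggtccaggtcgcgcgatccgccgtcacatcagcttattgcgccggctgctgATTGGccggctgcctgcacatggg
Mylip: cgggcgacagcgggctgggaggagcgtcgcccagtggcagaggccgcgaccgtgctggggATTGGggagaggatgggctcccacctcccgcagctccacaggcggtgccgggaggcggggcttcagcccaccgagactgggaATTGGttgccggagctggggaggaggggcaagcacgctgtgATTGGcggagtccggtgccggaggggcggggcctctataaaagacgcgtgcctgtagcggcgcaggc

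RefSeq promoter windows (250 bases before and 50 after the start site) were found for 23 of the 29 genes and searched on both strands. Fdps, Fdft1, Sqle, Stard4, Npc1 and Soat2 had no window. CCAAT stood in the windows of 21 of the 23 genes (91.3%), all but Acat2 and Scap, against 41.1% of the 27025 genes with a window. Those 27025 genes were not limited to the genes tested here in liver. A gene counted when any of its windows matched. CACGTG stood in 6 of the 23 (26.1%), against 8.09% of all genes, namely in Dhcr7, Hsd17b7, Insig1, Rdh11, Sc5d and Scap. TCACNCCAC was found in Hmgcs1 only, as TCACCCCAC, where it begins 137 bases before the start site, and 1.44% of all genes held it. These matches are letters in a window and were not measured as binding sites. CCAAT stood in the windows of genes that fell (Hmgcs1, Nsdhl, Sc5d), of genes that rose (Mylip, Insig2) and of Srebf2 alike.

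Expression is given in FPKM (fragments per unit of transcript length and of library size), as deposited. Read totals are not known from these values, so the absolute depth of each library is unknown. By definition, a single fragment is worth more FPKM in a library with fewer fragments. The FPKM per fragment given below therefore bears on relative depth. Differences are log2(FPKM + 1) in L2d13 minus WT, fitted with limma and given ± SE. A gene is said to rise or fall when its p, Benjamini-Hochberg adjusted over the 10532 genes tested, is under 0.05. The labels do not say that the 12 livers of a genotype came from separate mice, so each p-value rests on the variation among these samples, which may be technical. In whole liver, fewer cells of a type and less RNA per cell cannot be told apart.

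The sum of 5 hepatocyte markers (Alb among them) ran from 14772 to 38655 FPKM in L2d13 and from 32147 to 45189 FPKM in WT livers. The lowest was L2d13 replicate 3 of set 2, which also had the highest sums of Kupffer cell, endothelial, stellate and cholangiocyte markers. L2d13 replicate 6 of set 2 (29055 FPKM) and replicates 7, 8, 9 and 12 of set 4 also lay below the lowest WT library. The part of this difference in the results on sterol genes was not tested. Skeletal muscle markers summed to at most 0.12 FPKM, and exocrine pancreas markers to 64.92 FPKM in L2d13 replicate 1 of set 2 and at most 0.31 FPKM elsewhere. The name L2d13 is in use for a form of lysyl oxidase like 2. Loxl2 lay between 0.83 and 2.26 FPKM in L2d13 and between 0.36 and 1.26 FPKM in WT livers, and its annotated copy Gm21451 between 40.63 and 266 FPKM against 0.03 to 1.27 FPKM. Of the 24 libraries, 17 were alike in the FPKM that a single fragment is worth (0.957 to 1.017 of the common value) and 7 stood above it (1.035 to 1.285). The 7 are L2d13 replicate 3 and WT replicate 6 of set 2, L2d13 replicate 11 of set 4, and WT replicates 9, 10, 11 and 12 of set 4. The limit between them was set with the data in view.

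Over both sets, 11 of the 29 genes fell in L2d13 livers, where 4.86% of all genes tested fell. In the other direction 4 of the 29 rose, where 25.9% of all genes rose. The log2 difference was negative for 21 of the 29, with a median of -0.31, against a median of 0.12 over all genes. For none of the 29 were all 12 L2d13 livers below or all above the 12 WT livers, as they were for 0.0949% and 0.617% of all genes. Scaling the libraries to a common median ratio moved the median of all genes from 0.12 to 0.00 and gave 14 lower and 1 higher among the 29. The all-gene split then went from 512 lower and 2730 higher to 1164 lower and 1215 higher. Of the 4 genes that rose, only Npc1 did so under that scaling, and Scap, Insig2 and Mylip kept a positive difference but were no longer called.

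**Figure D1:**
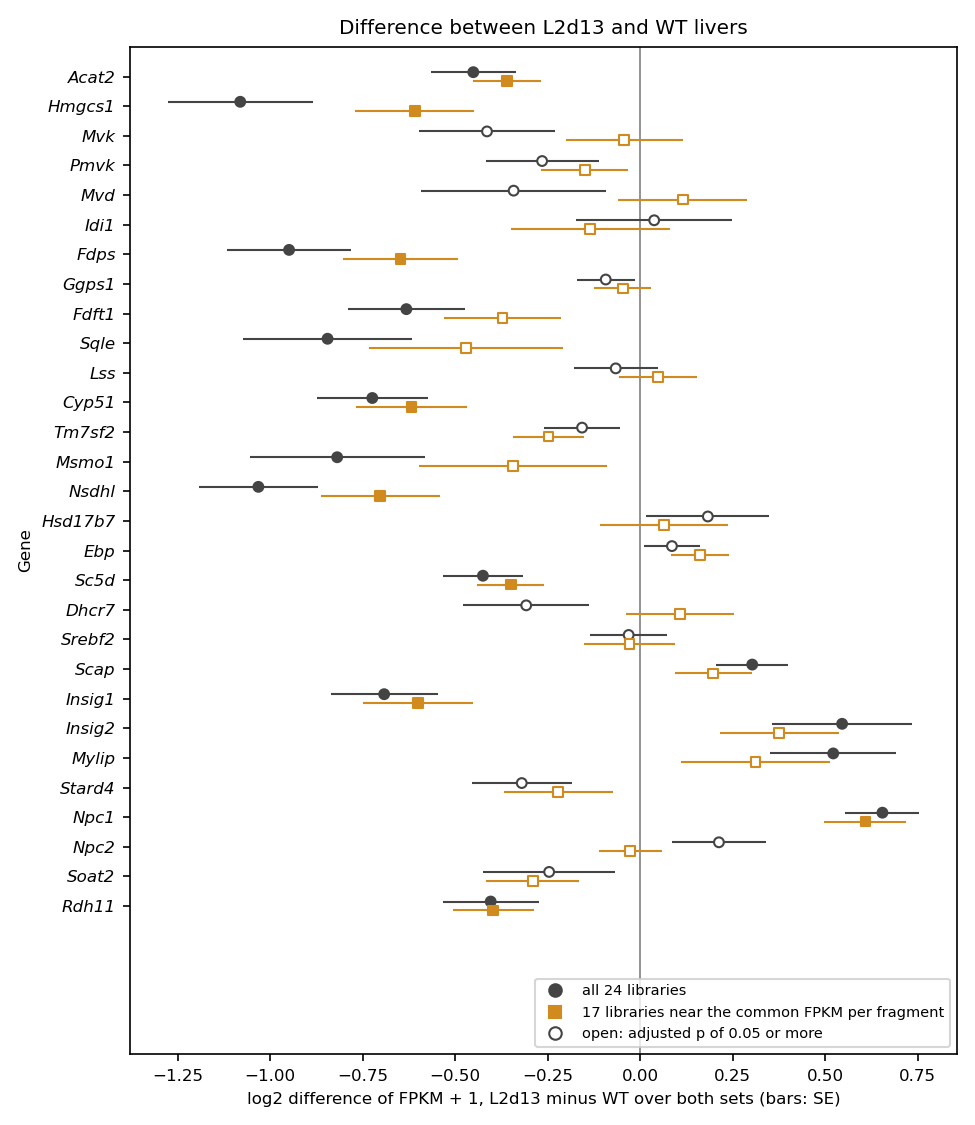
Difference in log2(FPKM + 1) between L2d13 and WT livers over both sets (horizontal axis, log2 units) for each of the 29 genes (vertical axis), from all 24 libraries and from the 17 libraries that are alike in FPKM per fragment. Points are estimates, bars are ± 1 SE, and filled points are called at an adjusted p under 0.05. Hmgcs1 (-1.08) and Nsdhl (-1.03) lie farthest to the left and Npc1 (0.66) farthest to the right, and with 17 libraries most points lie closer to 0.

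Among the 8 enzymes from acetyl-CoA to the isoprenoids, 3 fell and none rose (4.86% and 25.9% of all genes), with a median difference of -0.38. Acat2 (chr17:12942890-12960747), a thiolase that joins acetyl-CoA units in the cytosol, averaged 15.2 ± 1.81 FPKM in L2d13 and 21.7 ± 6.25 FPKM in WT livers (SD, n = 12 each). In set 2 its lowest, median and highest values were 13.8, 15.7 and 16.9 FPKM in L2d13 and 14.4, 19.4 and 23.3 FPKM in WT livers. Set 4 gave 12.3, 14.7 and 18.3 FPKM against 16.1, 23.1 and 34.7 FPKM. The groups overlapped in both sets, and all 12 L2d13 livers lay below the WT mean of their set. Acat2 fell by 0.45 ± 0.12 (adjusted p = 0.004603).

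Hmgcs1 (chr13:119690379-119708260), the synthase that makes HMG-CoA and whose promoter is shown above, averaged 24.6 ± 3.95 FPKM in L2d13 and 59.8 ± 34.1 FPKM in WT livers. In set 2 the values ran from 18.8 through a median of 21.0 to 27.7 FPKM in L2d13 and from 24.5 through 42.0 to 69.1 FPKM in WT livers. In set 4 they ran from 24.2 through 26.3 to 31.9 FPKM and from 32.0 through 71.1 to 137 FPKM. The groups overlapped in set 2 and were apart in set 4, where the highest L2d13 liver, at 31.91 FPKM, lay just under the lowest WT liver, at 31.96 FPKM. The L2d13 livers spread 1.70-fold from lowest to highest and the WT livers 5.60-fold. Hmgcs1 fell 2.12-fold (log2 difference -1.08 ± 0.20, adjusted p = 0.0002391).

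Fdps (chr3:89093588-89101959) makes farnesyl diphosphate, the branch point between sterols and other isoprenoids. Its mean was 25.0 ± 4.97 FPKM in L2d13 and 53.4 ± 26.7 FPKM in WT livers. Set 2 gave a lowest, median and highest value of 17.3, 21.4 and 25.5 FPKM in L2d13 against 26.3, 42.8 and 58.4 FPKM in WT livers, and these did not overlap. Set 4 gave 23.4, 29.4 and 33.5 FPKM against 30.7, 61.4 and 108 FPKM, which overlapped at their edges. The fall was 1.93-fold (-0.95 ± 0.17, adjusted p = 0.0001902).

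The other 5 enzymes of this stretch were not called over both sets. Mvk and Pmvk, which phosphorylate mevalonate, differed by -0.41 (adjusted p = 0.08843) and -0.27 (adjusted p = 0.1946), and Mvd, which decarboxylates the product, by -0.34 (adjusted p = 0.3143). Idi1, the isomerase of the isoprenoid unit, differed by 0.04 (adjusted p = 0.9166) and was low, from 0.33 to 6.63 FPKM over the 24 livers. Ggps1, which makes geranylgeranyl diphosphate for protein prenylation and not for sterols, differed by -0.09 (adjusted p = 0.3888) and stayed between 2.06 and 3.72 FPKM. Pmvk and Mvd had differences of opposite sign in the 2 sets, a change that was not called, and return below.

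Of the 11 enzymes from squalene to cholesterol, 6 fell and none rose (again 4.86% and 25.9% of all genes), with a median difference of -0.43. Fdft1 (chr14:63145150-63179578), squalene synthase and the first step that leads only to sterols, had medians of 12.2 FPKM in L2d13 and 17.48 FPKM in WT livers over both sets. Its lowest, median and highest values were 8.30, 10.7 and 12.2 FPKM against 11.1, 15.2 and 25.5 FPKM in set 2. They were 12.2, 13.0 and 20.4 FPKM against 13.5, 25.4 and 41.6 FPKM in set 4. The genotypes overlapped in both sets. Fdft1 fell by 0.63 ± 0.16 (adjusted p = 0.003903), and with the 17 libraries alike in FPKM per fragment its difference was -0.37 (adjusted p = 0.1039).

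Sqle (chr15:59315077-59331192), squalene epoxidase and a rate-limiting step, was the lowest of the genes that fell in L2d13 livers of set 2. There it ran from 1.61 through a median of 3.49 to 5.15 FPKM, and in WT livers from 5.97 through 7.09 to 18.9 FPKM, without overlap. In set 4 it ran from 5.70 through 9.30 to 12.1 FPKM in L2d13 and from 5.59 through 15.8 to 27.7 FPKM in WT livers, so that the lowest value belonged to a WT liver. Over both sets the means were 6.20 ± 3.49 and 12.2 ± 7.59 FPKM, and Sqle fell by 0.85 ± 0.23 (adjusted p = 0.006935). In the 17 alike libraries the difference was -0.47 (adjusted p = 0.2169).

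Cyp51 (chr5:4081145-4104746), the cytochrome P450 that demethylates lanosterol, averaged 13.2 ± 4.26 FPKM in L2d13 and 23.4 ± 9.19 FPKM in WT livers. Set 2 gave 7.89, 10.2 and 13.2 FPKM against 8.86, 18.3 and 25.5 FPKM as lowest, median and highest. Set 4 gave 13.1, 14.3 and 24.2 FPKM against 20.7, 26.3 and 41.8 FPKM. A single high L2d13 liver, replicate 8, crossed into the WT range of set 4. Cyp51 fell by 0.72 ± 0.15 (adjusted p = 0.0008908).

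Msmo1 (chr8:64718139-64733792), a methylsterol oxidase, averaged 26.1 ± 12.4 FPKM in L2d13 and 51.9 ± 35.9 FPKM in WT livers. In set 2 it ran from 10.2 through 15.7 to 19.7 FPKM in L2d13 and from 18.1 through 27.8 to 67.9 FPKM in WT livers. Set 4 values ran from 28.6 through 37.2 to 47.4 FPKM and from 19.1 through 72.7 to 114 FPKM, so the WT livers of set 4 lay on both sides of the L2d13 livers. Msmo1 fell by 0.82 ± 0.24 over both sets (adjusted p = 0.01084), with a difference of -0.34 in the 17 alike libraries (adjusted p = 0.3624).

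Nsdhl (chrX:72918557-72958514), a sterol dehydrogenase that works beside Msmo1 in removing methyl groups, had the smallest adjusted p of the genes that fell. Its lowest, median and highest values were 3.91, 4.63 and 6.17 FPKM in L2d13 and 8.12, 12.2 and 14.3 FPKM in WT livers of set 2, with no overlap. In set 4 they were 6.48, 9.73 and 10.3 FPKM and 8.57, 21.7 and 34.1 FPKM. The genotypes overlapped there through WT replicate 8, at 8.57 FPKM, while WT replicate 7, at 10.57 FPKM, lay just above the highest L2d13 liver, at 10.34 FPKM. Nsdhl averaged 6.96 ± 2.49 and 16.0 ± 8.05 FPKM and fell 2.04-fold (-1.03 ± 0.16, adjusted p = 5.325e-05).

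Sc5d (chr9:42251595-42264256), the sterol desaturase near the end of the pathway, averaged 59.5 ± 12.4 FPKM in L2d13 and 80.1 ± 17.46 FPKM in WT livers. It ran from 31.9 through 55.0 to 60.0 FPKM against 52.3 through 69.8 to 89.5 FPKM in set 2. In set 4 it ran from 56.0 through 66.1 to 80.4 FPKM against 70.7 through 84.9 to 118 FPKM. Both sets overlapped, and Sc5d fell by 0.43 ± 0.11 (adjusted p = 0.004731), a smaller change than that of Cyp51, Msmo1 or Nsdhl.

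The other 5 sterol enzymes were not called. Lss, which closes the lanosterol ring, differed by -0.07 (adjusted p = 0.6937) and ran from 2.26 to 6.59 FPKM. Tm7sf2, a sterol reductase, differed by -0.16 (adjusted p = 0.254), Hsd17b7, a ketosteroid reductase, by 0.18 (adjusted p = 0.4293), and Ebp, a sterol isomerase, by 0.09 (adjusted p = 0.4174). Dhcr7, the last reductase of the pathway, differed by -0.31 (adjusted p = 0.1758). Ebp and Tm7sf2 were among the most abundant of the 19 enzymes, with 89.4 to 145 FPKM and 38.9 to 81.1 FPKM. Within this stretch the difference ran from -1.03 for Nsdhl to 0.18 for Hsd17b7.

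**Figure D2:**
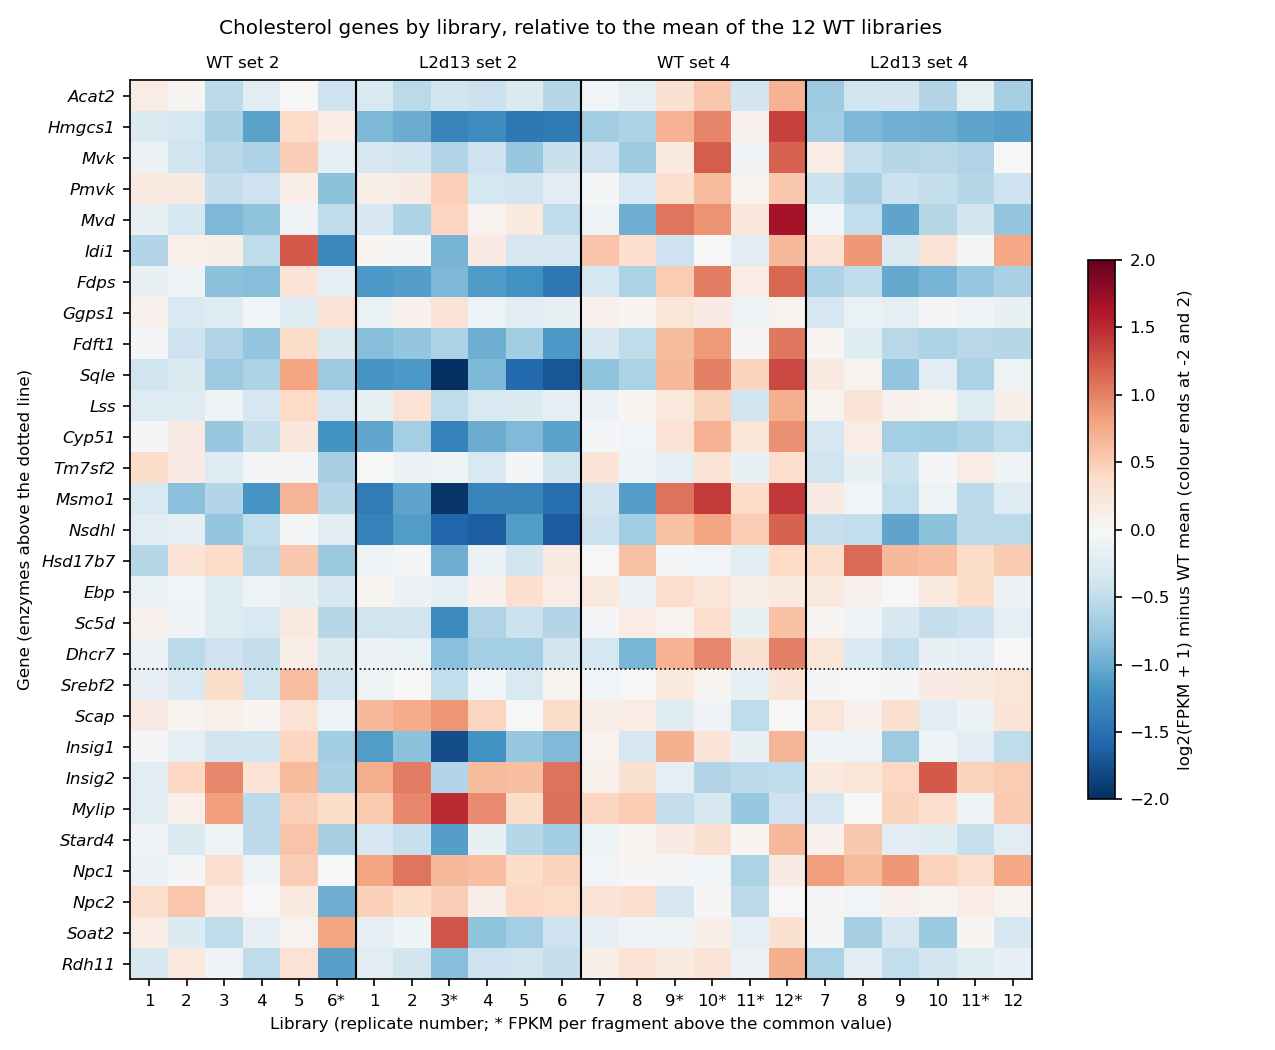
Heat map of the 29 genes (rows) in the 24 libraries (columns, grouped by genotype and set), as log2(FPKM + 1) minus the mean of the 12 WT livers. An asterisk marks the 7 libraries above the common FPKM per fragment. Of the 19 enzymes (above the dotted line), 14 have their highest library among WT replicates 9 to 12 of set 4, and 12 have it in replicate 12.

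Summed over the 19 enzymes, the FPKM of the set 2 livers was 337 to 410 (L2d13) and 399 to 630 (WT), with medians of 383 and 454. In set 4 it was 407 to 502 in L2d13 and 452 to 980 in WT livers, with medians of 459 and 653. The WT livers therefore spread more widely than the L2d13 livers in both sets, and the sums overlapped in both.

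SREBP2 is governed by 4 of the genes, of which 1 fell, 2 rose and 1 was not called, against 4.86% of all genes lower and 25.9% higher. Neither of the 2 that rose, Scap and Insig2, was called under median-of-ratios scaling. Srebf2, which encodes SREBP2, averaged 9.15 ± 1.36 FPKM in L2d13 and 9.51 ± 2.40 FPKM in WT livers. Insig1 (chr5:28071363-28078662), a retention protein that is itself a target of SREBP2, also fell. It ran from 14.5 through 25.6 to 30.4 FPKM in L2d13 against 31.9 through 42.7 to 70.2 FPKM in WT livers of set 2, with no overlap. In set 4 it ran from 31.1 through 46.4 to 49.4 FPKM against 41.2 through 58.6 to 85.6 FPKM, with overlap. The means were 33.8 ± 11.6 and 54.5 ± 17.7 FPKM, and Insig1 fell by 0.69 ± 0.15 (adjusted p = 0.0009685).

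Insig2 (chr1:121304353-121332589), the second retention protein, which liver expresses strongly, was the most abundant of the 29 genes and moved the other way from Insig1. In set 2 it ran from 110 through 267 to 354 FPKM in L2d13 and from 105 through 210 to 323 FPKM in WT livers, and the genotypes overlapped almost fully. In set 4 it ran from 189 through 224 to 390 FPKM and from 110 through 131 to 205 FPKM. Only WT replicate 8 of set 4, at 204.8 FPKM, reached into the L2d13 range of that set. Insig2 rose by 0.55 ± 0.19 (adjusted p = 0.03101), with 11 of 12 L2d13 livers above the WT mean of their set. This call was lost without any 1 of 8 libraries, L2d13 replicates 2 and 6 and WT replicates 1 and 6 of set 2, and L2d13 replicate 10 and WT replicates 10, 11 and 12 of set 4, where the adjusted p was at most 0.05698 and the log2 difference at least 0.47.

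Scap (chr9:110333288-110384950), the escort of SREBP2, averaged 28.95 ± 7.16 FPKM in L2d13 and 22.9 ± 3.20 FPKM in WT livers. It ran from 22.6 through 33.5 to 42.5 FPKM against 21.1 through 24.1 to 27.5 FPKM in set 2. Set 4 gave 19.3 through 25.6 to 28.5 FPKM against 15.6 through 22.1 to 25.2 FPKM. The genotypes overlapped in both sets and 9 of 12 L2d13 livers lay above the WT mean of their set. Scap rose by 0.30 ± 0.10 (adjusted p = 0.02137), and by 0.20 with the 17 alike libraries (adjusted p = 0.1928).

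**Figure D3:**
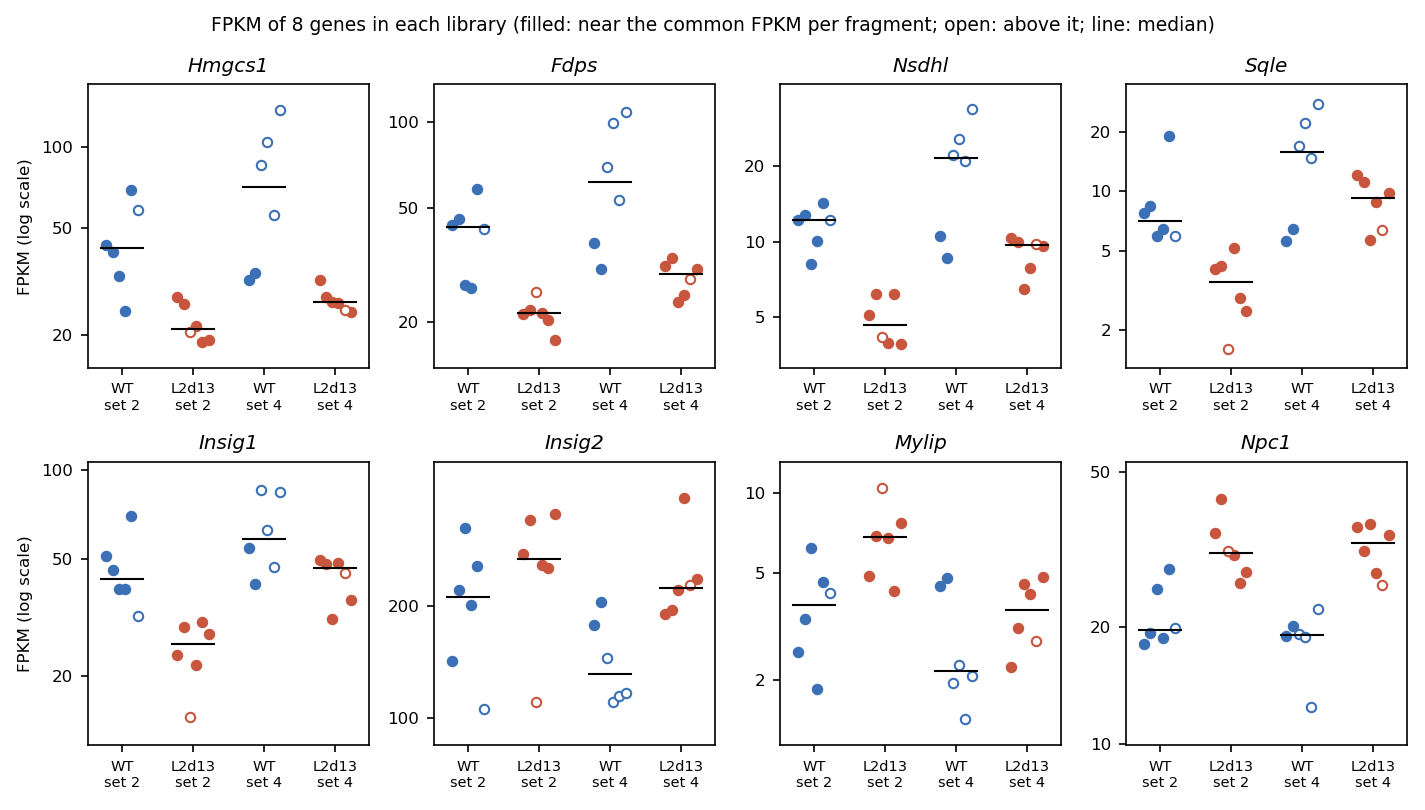
FPKM (log axis) of Hmgcs1, Fdps, Nsdhl, Sqle, Insig1, Insig2, Mylip and Npc1 in each of the 24 libraries, by genotype and set. Filled points are the 17 libraries alike in FPKM per fragment, open points are the 7 above it, and lines are group medians of 6 libraries. For the 4 enzymes the 4 open WT points of set 4 lie above the 2 filled ones, and for Npc1 the L2d13 and WT points of set 4 are apart.

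Of the 5 genes of uptake, transfer and storage, 2 rose and none fell, where 25.9% of all genes rose and 4.86% fell. Npc1, the membrane protein that lets cholesterol out of lysosomes, had the smallest adjusted p of all 29 genes. It ran from 25.9 through 31.0 to 42.6 FPKM in L2d13 and from 18.1 through 19.6 to 28.3 FPKM in WT livers of set 2. In set 4 the values were 25.6 through 32.9 to 36.7 FPKM and 12.4 through 19.1 to 22.2 FPKM, with no overlap. The means were 32.1 ± 5.10 and 20.1 ± 3.86 FPKM, all 12 L2d13 livers lay above the WT mean of their set, and Npc1 rose by 0.66 ± 0.10 (adjusted p = 4.373e-05). Npc2, its soluble partner in the lysosome, differed by 0.21 (adjusted p = 0.206), with 7.0 to 22.1 FPKM over the 24 livers.

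Mylip (chr13:45389742-45412022), a ubiquitin ligase that sends lipoprotein receptors to degradation, was low, at 5.24 ± 2.36 FPKM in L2d13 and 3.32 ± 1.53 FPKM in WT livers. Set 2 gave 4.28, 6.87 and 10.5 FPKM against 1.85, 3.81 and 6.22 FPKM as lowest, median and highest. Set 4 gave 2.22, 3.65 and 4.85 FPKM against 1.42, 2.16 and 4.80 FPKM. The genotypes overlapped in both sets. Mylip rose by 0.52 ± 0.17 (adjusted p = 0.02232), and its difference in the 17 alike libraries was 0.31 (adjusted p = 0.2909).

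Stard4, a cytosolic carrier of sterol, differed by -0.32 (adjusted p = 0.07229) with 11 of 12 L2d13 livers below the WT mean of their set. Soat2, which makes cholesteryl esters for storage and secretion, differed by -0.25 (adjusted p = 0.3086). Its highest value of 33.6 FPKM was in L2d13 replicate 3 of set 2, the library lowest in hepatocyte markers, and without that library the difference was -0.38 and was called. Rdh11 (chr12:79174337-79192293), a retinal reductase and a known target of SREBPs, fell by 0.40 ± 0.13 (adjusted p = 0.02057). Its values were 5.60, 8.04 and 9.35 FPKM against 4.65, 9.48 and 13.7 FPKM in set 2. In set 4 they were 6.68, 8.66 and 9.68 FPKM against 10.02, 13.0 and 18.8 FPKM. The genotypes overlapped in set 2 and not in set 4.

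Several of these genes share exon sequence with a neighbour in GENCODE M21, and whether the authors counted by strand is not given in the sources used here. Fdps shares 1124 exon bases with Gm43738 on its own strand, and Fdft1 shares 774 with Ctsb on the other strand. Hmgcs1 and Scap share 557 and 785 bases with Gm48342 and 5830462I19Rik, and Npc1 and Cyp51 share 192 and 166 with Rmc1 and Akap9, all on the other strand. Lss shares 381 bases with 4930483K19Rik and Idi1 shares 323 with Gm48574, both on the other strand, and Tm7sf2 shares 14 with Vps51 on its own. How reads were divided between these pairs was not tested, and the values of those 9 genes carry that uncertainty.

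Within set 2, the L2d13 and WT livers differed in 9 of the 29 genes. Of these 6 were lower, where 2.13% of all genes were: Hmgcs1 (-0.91, adjusted p = 0.02889), Fdps (-0.85, 0.02029), Sqle (-1.11, 0.02178), Cyp51 (-0.66, 0.04218), Nsdhl (-1.09, 0.003035) and Insig1 (-0.89, 0.005242). The 3 that were higher, where 13.0% of all genes were, are Npc1 (0.56, 0.01079), Scap (0.42, 0.04079) and Mylip (0.73, 0.04224). The groups were apart, with every L2d13 liver below every WT liver, for Fdps, Sqle, Nsdhl and Insig1, where 0.560% of all genes were apart in that direction. None was apart with L2d13 higher, as 5.44% of all genes were. Leaving out WT replicate 5, the highest WT liver of the set for Hmgcs1, Sqle and Msmo1, left 3 genes lower. Leaving out any 1 of L2d13 replicates 2, 3 and 4 or WT replicates 1, 2 and 4 left 1 gene higher.

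Within set 4, 9 genes were lower, where 2.97% of all genes were, and 1 was higher, where 10.3% were. Lower were Acat2 (-0.64, adjusted p = 0.008944), Hmgcs1 (-1.25, 0.004724), Pmvk (-0.70, 0.0134), Mvd (-1.02, 0.02835), Fdps (-1.05, 0.005671), Fdft1 (-0.71, 0.03939), Cyp51 (-0.79, 0.01797), Nsdhl (-0.97, 0.007791) and Rdh11 (-0.60, 0.02826). Higher was Npc1 (0.75, 0.001435). Hmgcs1, Pmvk and Rdh11 did not overlap, where 1.70% of all genes were apart in that direction, and Npc1 was apart in the other direction, as were 4.86% of all genes. Fewer genes were lower without WT replicate 12 (5 genes) and without WT replicate 9, WT replicate 10 or L2d13 replicate 9 (6 genes each). Without WT replicate 8 there were 13.

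Pmvk and Mvd had differences of opposite sign in the sets. Pmvk ran from 8.92 through 11.6 to 17.05 FPKM in L2d13 and from 6.32 through 10.9 to 13.7 FPKM in WT livers of set 2. In set 4 it ran from 7.26 through 8.41 to 8.69 FPKM and from 9.44 through 13.9 to 19.04 FPKM. Mvd ran from 3.07 through 4.72 to 7.43 FPKM against 2.35 through 3.63 to 4.95 FPKM in set 2, and from 2.01 through 3.32 to 5.0 FPKM against 2.18 through 8.43 to 18.8 FPKM in set 4. The genotype difference was 0.17 and -0.70 for Pmvk and 0.34 and -1.02 for Mvd, and the change between sets had an adjusted p of 0.2734 and 0.339. None of the 29 passed the limma test of that change, where 0.152% of all genes did. Pmvk and Mvd were the 2 with an unadjusted p under 0.05, where 7.09% of all genes had one, and with libraries weighted by their spread 2 of the 29 passed the adjusted test.

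**Figure D4:**
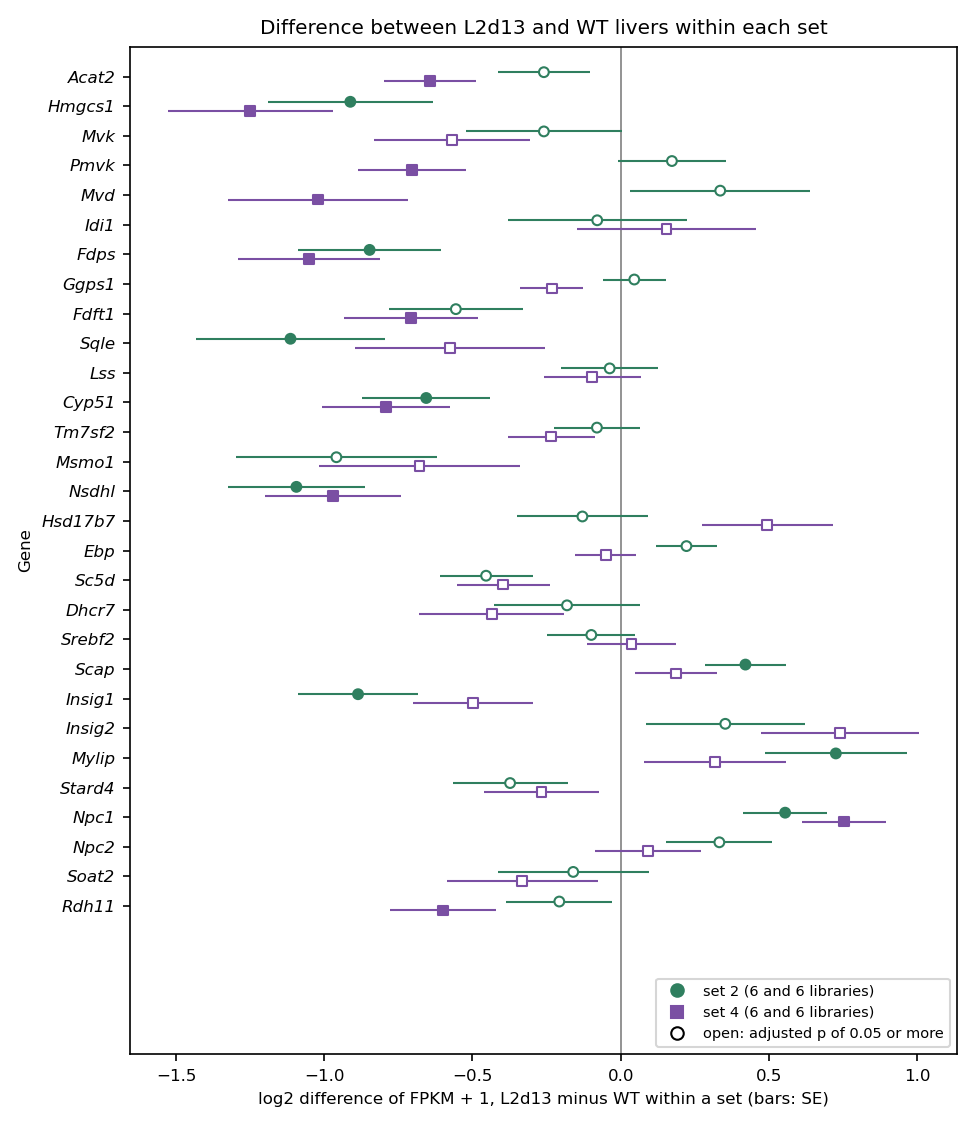
Difference in log2(FPKM + 1) between L2d13 and WT livers within set 2 (circles) and set 4 (squares), on the horizontal axis in log2 units, for each of the 29 genes on the vertical axis. Bars are ± 1 SE and filled points are called at an adjusted p under 0.05; Hmgcs1, Fdps, Cyp51 and Nsdhl are filled and negative in both sets, Npc1 is filled and positive in both, and Pmvk and Mvd are positive in set 2 and negative in set 4.

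Between the sets, the L2d13 livers of set 4 had higher levels of 5 of the 29 genes than those of set 2 and lower levels of none, where 0.551% of all genes were higher and 5.51% lower. The 5 are Sqle (1.195, adjusted p = 0.02868), Msmo1 (1.22, 0.03492), Nsdhl (0.77, 0.0474), Hsd17b7 (0.84, 0.02722) and Insig1 (0.80, 0.02124). Single libraries decided this count: none passed without L2d13 replicate 3 of set 2 or L2d13 replicate 10 of set 4, and 1 passed without L2d13 replicate 7 or 8 of set 4. There were 2 without L2d13 replicate 12 of set 4 or replicate 6 of set 2, and 3 without replicate 1 of set 2. Some markers of other cells also differed between these sets. The endothelial marker sum was 76.4 to 156 FPKM in L2d13 livers of set 2 and 29.2 to 67.9 FPKM in those of set 4. The stellate sum was 154 to 388 FPKM and 82.1 to 129 FPKM, with no overlap in either. The Kupffer cell sum (68.2 to 146 and 32.9 to 126 FPKM) and the cholangiocyte sum (13.1 to 123 and 12.3 to 35.5 FPKM) overlapped. The part of these cells in the set difference was not tested. In WT livers the mean difference between set 4 and set 2 was positive for all 19 enzymes. Its median was 0.46, against -0.08 over all genes. With the 17 libraries alike in FPKM per fragment, which keep 2 WT livers of set 4, the median over the enzymes was -0.08. None of the 29 genes passed the limma test of the sets with all libraries, where 0.190% of all genes did. Of the 29, 11 had an unadjusted p under 0.05, where 8.09% of all genes did, and the smallest adjusted p was 0.2623, for Ebp.

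The WT livers of set 4 fell into both classes of FPKM per fragment. The 2 replicates 7 and 8 were near the common value (0.986 and 0.987 of it), and the 4 replicates 9 to 12 were above it (1.035 to 1.117). Hmgcs1 was at 32.0 and 34.0 FPKM in the former and between 56.1 and 137 FPKM in the latter. Fdps had 30.7 and 37.7 FPKM against 53.5 to 108 FPKM, Sqle 5.59 and 6.43 FPKM against 14.7 to 27.7 FPKM, and Nsdhl 8.57 and 10.6 FPKM against 21.1 to 34.1 FPKM. Dhcr7, not called for genotype, had 8.46 and 13.0 FPKM against 21.1 to 34.7 FPKM. Mylip and Insig2 ran the other way, at 4.48 and 4.80 against 1.42 to 2.26 FPKM and at 177 and 205 against 110 to 145 FPKM. Of the 19 enzymes, 14 had their highest library among those 4.

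Markers of other liver cells also differed in these 4 libraries. The Kupffer cell sum was 17.7 to 31.2 FPKM in WT replicates 9 to 12 of set 4 and 49.8 and 78.3 FPKM in replicates 7 and 8, within ranges of 17.7 to 115 FPKM over WT and 32.9 to 146 FPKM over L2d13 livers. The sinusoidal endothelial sum was 18.7 to 36.5 FPKM against 55.0 and 67.7 FPKM, with 18.7 to 82.7 FPKM over WT and 29.2 to 156 FPKM over L2d13 livers. Of the tested markers, 2 of 6 of Kupffer cells, 4 of 5 of endothelium and 1 of 5 of stellate cells rose in L2d13 livers and none of these fell, where 25.9% of all genes rose. Of the 5 hepatocyte markers 1 rose and 1 fell, and of 3 tested cholangiocyte markers none was called. Their part in the results on sterol genes was not tested. Of the other 3 libraries above the common FPKM per fragment, 1 had the lowest sum of the 19 enzymes in any liver. This was L2d13 replicate 3 of set 2, at 337 FPKM (group range 337 to 410 FPKM). In L2d13 replicate 11 of set 4 the sum was 469 FPKM (407 to 502 FPKM), and in WT replicate 6 of set 2 409 FPKM (399 to 630 FPKM). Hmgcs1 was at 20.5 and 24.8 FPKM in the 2 L2d13 livers, within the L2d13 range. At 58.0 FPKM in WT replicate 6 of set 2, it lay above the median of 42.0 FPKM of that group.

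With the 17 libraries near the common FPKM per fragment alone (10 L2d13 and 7 WT), 8 genes fell and 1 rose over both sets, where 5.25% and 14.9% of the 10277 genes tested in them did. The falls were Acat2 (-0.36, adjusted p = 0.01015), Hmgcs1 (-0.61, 0.01208), Fdps (-0.65, 0.007061), Cyp51 (-0.62, 0.00697), Nsdhl (-0.70, 0.005037), Sc5d (-0.35, 0.01021), Insig1 (-0.60, 0.008049) and Rdh11 (-0.40, 0.01583). Npc1 rose by 0.61 (adjusted p = 0.001055). All 9 were also called with 24 libraries. Hmgcs1 went from -1.08 with 24 libraries to -0.61 with 17, and Nsdhl from -1.03 to -0.70, while Npc1 (0.66 and 0.61) and Rdh11 (-0.40 in both) moved little.

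Taken by set, these 17 libraries gave 9 lower and 2 higher genes in set 2, where 3.07% and 19.3% of all genes were. Nsdhl had -1.04 (adjusted p = 0.000459), Sqle -1.05 (0.006811) and Hmgcs1 -0.80 (0.007888) there, close to the values from all libraries. In set 4, where only 2 WT livers remained, none was lower and Npc1 alone was higher (0.73, adjusted p = 0.03257), where 3.06% and 1.75% of all genes were. In these set 4 libraries Hmgcs1 differed by -0.27 (adjusted p = 0.5646). Sqle and Msmo1 had differences of 0.55 (adjusted p = 0.3315) and 0.59 (0.3076), of the opposite sign to those in set 2 but not called. Over the 19 enzymes the median difference was -0.23 (set 2) and -0.08 (set 4). With the class as a term in the fit of all 24 libraries, 12 genes fell and 3 rose over both sets, and 8 fell and 1 rose in set 4. The shares of all genes called with that term are not given here, so these counts cannot be read against them.

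Across 37 other settings of the analysis, which include leaving out each library in turn, 9 genes were called in every one: Acat2, Hmgcs1, Fdps, Cyp51, Nsdhl, Sc5d, Insig1 and Rdh11 as lower and Npc1 as higher. Fdft1, Sqle and Msmo1 were called in 35, all but the 2 settings that keep the 17 alike libraries. Scap was called in 33 and Insig2 in 22, and Mylip in 32 of the 36 that tested it.

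Lists of genes around the pathway are described by their counts, to be read against all genes tested, of which 25.9% rose and 4.86% fell, with a median difference of 0.12. Among 5 tested enzymes of acetyl-CoA supply and late sterol steps outside the 29 genes, Aacs, which activates acetoacetate, fell (-0.74, adjusted p = 0.00156) and Acat1, the mitochondrial thiolase, rose (0.38, 0.008776). Of 15 genes of the nonsterol branches of the mevalonate pathway, 7 rose and none fell, with a median difference of 0.24 against 0.12 over all genes. They include Fntb, a farnesyltransferase subunit (0.42, 8.168e-06), and Dhdds and Nus1, the subunits of the enzyme that makes dolichol precursors (0.49, 0.0001012 and 0.46, 0.0009035). Fntb went from 1.05 ± 0.14 FPKM in WT to 1.75 ± 0.20 FPKM in L2d13 livers, and Dhdds from 5.60 ± 1.004 to 8.27 ± 1.35 FPKM.

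Of 13 genes for SREBP cleavage and for sterol-regulated degradation in the endoplasmic reticulum, 6 rose and 1 fell, with a median of 0.23, where 25.9% of all genes rose and 4.86% fell. Pgrmc1, a heme-binding membrane protein, fell from 706 ± 73.7 to 526.3 ± 42.3 FPKM (-0.42, adjusted p = 0.0001005). Rnf145, a ubiquitin ligase, rose (0.40, 0.004121). Sterol transfer, esterification and lysosomal genes gave 6 higher and 1 lower of 20 tested, with a median of 0.09, close to the shares of all genes (25.9% and 4.86%, median 0.12). Stard5, a sterol carrier related to Stard4, rose from 30.1 ± 5.03 to 45.4 ± 5.26 FPKM (0.59, 3.402e-05), and Osbpl1a and Osbpl2, oxysterol-binding protein relatives, rose by 0.36 (0.003595) and 0.27 (0.007301).

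Oxysterol receptors and their targets gave 3 higher and 2 lower of 9 tested, with a median of 0.01, and the share that rose was near that of all genes (25.9%). Nr1h3, the receptor LXR alpha, rose by 0.26 (adjusted p = 0.006628), and Scd1, a fatty acid desaturase, fell by 1.17 (0.002253). Fatty acid genes of the SREBP1 branch gave 2 higher and 3 lower of 12 tested, with a median of -0.09, against 25.9% and 4.86% of all genes. Srebf1, which encodes SREBP1, fell from 12.4 ± 5.08 to 7.60 ± 2.05 FPKM (-0.60, 0.008022), Thrsp, a lipogenic gene, fell from 43.4 ± 31.4 to 11.1 ± 4.31 FPKM (-1.58, 0.001861), and Acacb, an acetyl-CoA carboxylase, rose (0.60, 0.0009819). Under the same test, then, Srebf1 fell and Srebf2 was not called; the difference between the 2 genes was not tested.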

How the data were processed

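RNA was extracted with TRIzol from liver and sequenced on the BGISEQ-500 platform, per the labels' protocols. The authors deposited FPKM, which was used unchanged; HISAT, Bowtie2, RSEM and the build GRCm38.p5 are named, without versions, per the submitters' processing notes, and no further normalization is given in the sources used here. Gene identifiers (18040 of 18171) were matched to RefSeq symbols. Columns of no sample: 0. No 2 libraries were identical (r from 0.909 to 0.992).

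The 10532 genes that reached 1 FPKM in 6 or more libraries were fitted as log2(FPKM + 1) with limma 3.58.1 in R 4.3.3, with moderated, mean-trended variances and two-sided tests. The pseudocount of 1 understates changes of low genes. Genotype over both sets came from additive terms for genotype and set, and all other comparisons from a fit with 1 mean per group. Benjamini-Hochberg adjustment ran over all genes tested. The fit was tested on simulated data. FPKM per fragment was read from the spacing of low values in 127 genes. Of 1360 such values 98.8% came within 0.2 of a whole step, which is no independent check because each step came from these values. Markers and members were summed in Python 3.11.15 with pandas 2.3.3.

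The 29 genes and all lists were chosen with earlier results of these data known. All 29 are named; of each further list, up to the 3 called genes with the smallest p. Counts include 2 genes named by this rule that are not reported here. The rule foresaw promoter stretches of at most 30 bases; longer ones are shown. Same-numbered replicates were not taken as pairs, since 4 of 12 pairs of numbers had a correlation of deviations over 0.1 (range -0.604 to 0.26).

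The alternatives were other pseudocounts, filters, scalings, variance models and library weights, a term for the class of FPKM per fragment, a replicate block, and fits that leave out libraries.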

Additional observations from a re-analysis of the deposited data

Results flagged for a closer look

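Within groups of 6 livers, 11 of 116 combinations of gene and group held 1 value set apart from the other 5 (gap over range above Dixon's critical value). Chance flags about 1 in 20 such groups, and values of 1 library are not independent between genes.

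WT replicate 5 of set 2 held 5 of the 11, all as the highest of its group and all in synthesis enzymes. Sqle was at 18.95 FPKM against 5.97 to 8.43 FPKM in the other 5 livers, and Msmo1 at 67.87 against 18.06 to 34.01 FPKM. Mvk was at 7.67 against 3.01 to 4.66 FPKM, Lss at 5.09 against 2.64 to 3.28 FPKM, and Idi1 at 6.63 against 0.33 to 2.53 FPKM. This library is near the common FPKM per fragment.

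L2d13 replicate 3 of set 2, the library with the lowest hepatocyte marker sum, was the lowest for Sc5d (31.9 against 51.12 to 60.0 FPKM) and the highest for Soat2 (33.63 against 7.24 to 12.59 FPKM).

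In set 4, L2d13 replicate 8 was the highest for Cyp51 (24.22 against 13.07 to 16.97 FPKM) and Hsd17b7 (28.66 against 16.17 to 20.12 FPKM). L2d13 replicate 10 was the highest for Insig2 (390.48 against 189.46 to 235.69 FPKM). WT replicate 11 was the lowest for Npc1 (12.44 against 18.91 to 22.22 FPKM).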

How the results depend on the processing

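All counts below are of genes lower or higher in L2d13 at an adjusted p under 0.05, and no called gene changed sign over both sets in any setting. With all libraries 11 and 4 of the 29 genes were lower and higher over both sets, 6 and 3 in set 2, and 9 and 1 in set 4. The counts that moved by more than 1.5 times are these. With no filter on low values, 1 was higher in set 2 and 3 differed between sets in L2d13. Median-of-ratios scaling gave 1 higher over both sets and 0 in set 2, with 1164 of all genes lower and 1215 higher. Quantile normalization gave 1 and 0, with 1079 and 1310. Array weights gave 18 lower over both sets, 10 in set 2 and 19 in set 4, 4 higher in set 4, 2 whose genotype difference differed between sets, 19 and 10 that differed between sets in WT and L2d13, and 1534 lower and 4343 higher of all genes. The 17 libraries near the common FPKM per fragment gave 1 higher over both sets, 0 lower in set 4 and 1527 of all genes higher. The next settings were chosen after seeing the data. Those 17 libraries with median-of-ratios scaling gave 1 higher over both sets, 11 lower and 0 higher in set 2, 0 lower in set 4, and 1022 and 1039 of all genes. Without both set 2 libraries of high FPKM per fragment, 1 was higher in set 2, 2 in set 4, and 2 differed between sets in L2d13. The cause of these changes was not tested.

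Leaving out 1 library at a time gave 11 to 13 lower and 3 to 4 higher over both sets, 3 to 8 and 1 to 3 in set 2, and 5 to 13 and 1 to 2 in set 4. Between sets it gave 0 to 3 in WT and 0 to 7 in L2d13, and 0 for the change in genotype difference. Of all genes 423 to 821 were lower and 2253 to 3307 higher.

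A replicate block on the shared numbers gave 11 lower and 3 higher over both sets, 2 and 1 in set 2 and 6 and 1 in set 4, with 393 and 2133 of all genes; Insig2 lost its call, and 1 of the 12 L2d13 libraries correlated best with the WT library of its own number. The sets share no numbers, so the set comparisons have no block. FPKM carries no absolute read totals, so how depth limits low genes such as Idi1 is unknown.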
